A study of Mus musculus with 52 samples.

Results

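The single agents of the study were set directly against each other: subcutaneous KPC tumors of mice given only an agonistic antibody to the lymphotoxin-β receptor (anti-LTbR) and tumors of mice given only the STING agonist ADU-S100. The comparison used 16 of the 52 deposited libraries, 8 tumors per agent, and all genes of the normalized count table. KPC tumors grew in the flank of male C57BL/6NHsd mice, 8 to 10 weeks of age, from cells of a pancreatic tumor that arose in a mouse with engineered alleles switched on by Pdx1-Cre, so the tumor cells are pancreatic while the surrounding tissue is that of the skin and flank. ADU-S100 tumors received 1 intratumoral injection of 2 µg, anti-LTbR mice received 4 intraperitoneal injections of the antibody, and every tumor was resected on day 14 and sequenced on its own. Untreated tumors (n = 8) and tumors given both agents (combination, n = 8) are quoted as background only, and the other 20 libraries belong to another experiment.

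LTβR is a receptor of the tumor necrosis factor family on stromal, endothelial and myeloid cells. Its ligands come from lymphocytes, and its signal switches on the chemokines CCL19, CCL21 and CXCL13 and the high endothelial venules through which lymphocytes enter lymph nodes. STING is an intracellular sensor of cyclic dinucleotides, ADU-S100 is an analog of its natural ligand cGAMP, and its activation leads to type I interferon and interferon-stimulated genes within hours. Tertiary lymphoid structures, lymph node-like aggregates of B cells, T cells, dendritic cells and such venules, are the setting in which the study asked what each agonist does alone.

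Library size after conversion of the deposited values to whole reads was 12882570 to 15214537 in ADU-S100 tumors and 13316624 to 15404418 in anti-LTbR tumors, so depth was alike. Any pair of the 16 libraries correlated at 0.935 to 0.987 over genes. Epithelial markers of the tumor cells were present in every tumor (Krt19 2620 to 4582 normalized counts with ADU-S100 and 2901 to 3495 with anti-LTbR). Tumors differed widely in host tissue: summed skeletal muscle markers ran from 9325 to 283890 in ADU-S100 and from 8912 to 204220 in anti-LTbR tumors, and summed skin keratinocyte markers from 1181 to 37055 and from 1655 to 42397. No skeletal muscle (0 of 10), skin keratinocyte (0 of 8), adipocyte (0 of 8) or erythroid marker (0 of 6) passed the test between the groups by limma, edgeR or DESeq2, and 0 of these had an unadjusted limma p under 0.05. With the muscle and skin sums as covariates all 100 genes called below were still called, and 1 muscle marker, Atp2a1, passed. The muscle sum includes Atp2a1 itself, so its passing in that fit does not compare muscle content between the agents.

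Of 16649 genes tested, 100 differed by at least 2-fold at a false discovery rate (FDR) below 0.05 (limma, Benjamini-Hochberg), which is 0.601% of genes tested. Anti-LTbR tumors were higher in 93 (0.559%) and lower in 7 (0.0420%). Among the 100 were 45 immunoglobulin genes, all higher, and 55 others, of which 48 were higher and 7 lower. At the FDR alone 1069 genes (6.42%) differed, 563 higher (3.38%) and 506 lower (3.04%). That count fell to 425 without ADU-S100 tumor 2, 454 without anti-LTbR tumor 6, 529 without ADU-S100 tumor 4, 570 without anti-LTbR tumor 4, 605 without anti-LTbR tumor 7 and 606 without ADU-S100 tumor 5, and the highest was 1498 without ADU-S100 tumor 7. The changes at the FDR alone were uneven in size, with a median log2 difference of 0.45 among the higher genes and -0.20 among the lower, and 484 of the 506 lower and 362 of the 563 higher genes moved by less than 1.5-fold. The count of 100 fell to 49 without ADU-S100 tumor 2, to 52 without anti-LTbR tumor 6 and to 63 without anti-LTbR tumor 4. Of 156 list members and other named genes that passed the FDR, 91 did so in all 16 fits that each left out 1 tumor. The counts per gene list below stand beside the shares of all genes tested, 3.38% passing as higher and 3.04% as lower.

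Many calls also depended on the samples in the fit. When the 4 groups shared an estimate of the spread, 49 of 134 named genes that had passed no longer did, with FDRs of 0.0532 to 0.143. Among those described in the following paragraphs were the antibody genes Ighg1, Jchain and Derl3, the lymphocyte genes Pdcd1, Icos, Lck, Cd2, Il12rb2, Klrc1, Klrb1c and Il2ra, the chemokines Ccl21a, Ccl21b (with Gm10591), Cxcl13 and Cxcl10, the interferon and STING genes Sting1, Ifit2, Oasl2, Gbp5 and Gbp3, the antigen presentation genes H2-Aa, H2-Eb1, Ctss, Tapbp, Tap1 and Tap2, the myeloid and mast cell genes Cd68, Lyz2, Csf1r, Clec9a, Retnla and Tpsb2, the vascular and stromal genes Icam1, Vwf, Mmrn1, Reln and Dpt, and, lower with anti-LTbR, Vegfa, Sox9 and Itgb4. DESeq2 in turn passed Cd79a, Cd3e, Cd8a, Pecam1, Ighg2b, Ighg2c, Igha, Cma1, Krt18, Msln, Cgas, Lrrc8a and Slc2a1, which limma did not. Of these edgeR passed Cd79a, Ighg2b and Ighg2c.

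For 104 genes (0.625%) the 8 values of one agent lay entirely on one side of the 8 values of the other, 62 with anti-LTbR above (0.372%) and 42 with anti-LTbR below (0.252%). Of the 100 called genes, 14 were of this kind, all with anti-LTbR above, and 2 of those are predicted genes without a name. The other 12, in order of adjusted p, were Dbp, Ighv4-1, Kynu, Iglc2, C3, Piwil4, Iglv2, Iglc3, Ltc4s, Ighv8-8, Cpne7 and Pdcd1lg2. They are a clock output factor, immunoglobulin segments and constant genes, an enzyme of tryptophan breakdown, the central complement protein, a Piwi-family protein, leukotriene C4 synthase, a copine and the PD-1 ligand PD-L2.

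**Figure D1:**
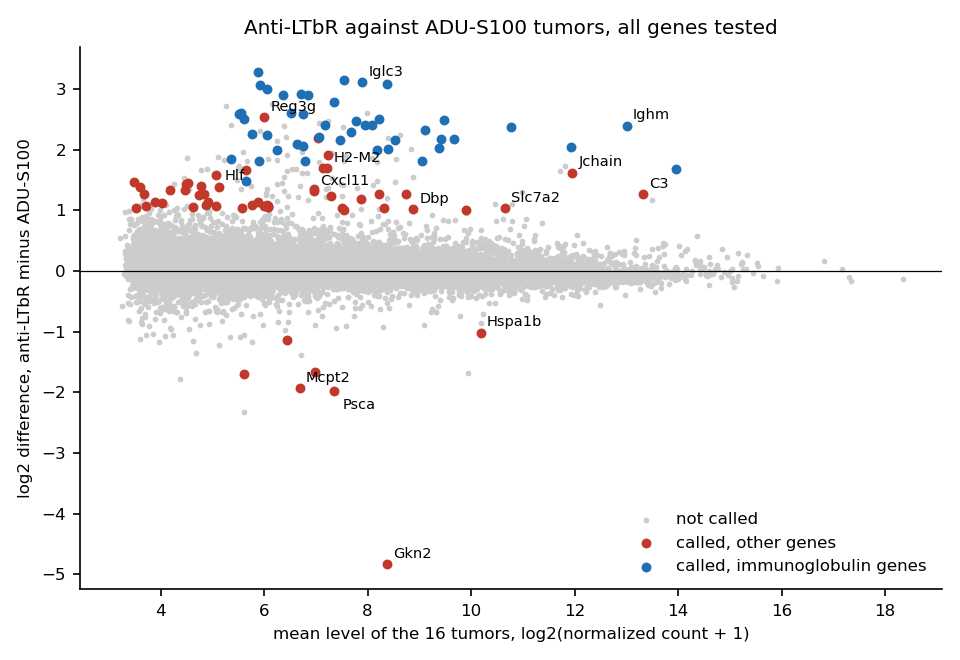
Log2 difference between anti-LTbR and ADU-S100 tumors (y axis, positive where anti-LTbR is higher) against the mean level of the 16 tumors (x axis, log2(normalized count + 1)) for the 16649 genes tested. Blue points are the 45 called immunoglobulin genes, red points the 55 other called genes and gray points the rest; the called genes lie mostly above 0, and Gkn2 stands apart at -4.84.

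Immunoglobulin genes made the largest block. Antibody messenger RNA is made by B cells at a low level and by plasma cells in bulk, from a heavy chain and a kappa or lambda light chain that each join a variable segment to a constant gene. Summed over the 214 immunoglobulin genes of the table, ADU-S100 tumors held 7871, 27884 and 40106 normalized counts (lowest, median and highest) and anti-LTbR tumors 25085, 95209 and 272117. The lowest anti-LTbR tumor (tumor 1) lay inside the ADU-S100 range, and the other 7 lay above all 8 ADU-S100 tumors. As a share of all normalized counts this was 0.0474% to 0.245% with ADU-S100 and 0.162% to 1.67% with anti-LTbR. Untreated tumors spanned 11694 to 94064 and combination tumors 56468 to 351236. In bulk tissue, more cells of a type and more RNA per cell cannot be told apart, here and for every gene below.

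Of 129 variable segments tested, 38 were called higher and none lower with anti-LTbR. The difference was positive in 126, and the median log2 difference was 1.81 (-0.0078 over all genes tested). A segment could enter the test through the group where it was high. Ighv2-6, for example, had a mean of 5.38 with ADU-S100 and 86.0 with anti-LTbR. The filter can thus tilt the count of 126 and the median toward anti-LTbR, so both are descriptions only. Passing segments came from all 3 loci: 20 of 66 heavy, 15 of 60 kappa and 3 of 3 lambda segments. Near-identical segments can share reads, so single segments are uncertain and the counts per locus carry the description. Ighv4-1 had 2.19, 11.6 and 22.5 normalized counts with ADU-S100 and 30.6, 82.5 and 301 with anti-LTbR. All 8 anti-LTbR tumors lay above all 8 ADU-S100 tumors for this segment, at a log2 fold change of 3.06 ± 0.43 (SE, limma FDR 0.00306).

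The segments used were many. The most abundant heavy variable segment took 7.06% to 15.7% of heavy variable counts in ADU-S100 tumors and 6.67% to 23.3% in anti-LTbR tumors, the highest being Ighv1-50 in anti-LTbR tumor 3. It was a different segment from tumor to tumor, 7 different genes among the ADU-S100 tumors and 6 among the anti-LTbR tumors. Between 23 and 62 heavy segments exceeded 10 normalized counts in an ADU-S100 tumor, and between 58 and 83 in an anti-LTbR tumor. The cutoff is fixed while summed immunoglobulin counts differed (median 27884 with ADU-S100 and 95209 with anti-LTbR). More segments clear it where antibody RNA is more abundant, so these numbers do not compare breadth of segment use.

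Of 11 constant genes tested, 7 were called higher. Ighm, the constant gene of IgM, had 758, 1964 and 4340 normalized counts with ADU-S100 and 2356, 11244 and 38167 with anti-LTbR, where 7 of 8 tumors exceeded every ADU-S100 tumor (log2 fold change 2.40 ± 0.45 SE, limma FDR 0.00907). The lambda gene Iglc2 did not overlap between the agents, at 46.4 to 117 with ADU-S100 and 169 to 1336 with anti-LTbR (2.40 ± 0.34, FDR 0.00306). Its relative Iglc3 was likewise separate, at 10.1 to 68.5 and 85.6 to 1626 (3.11 ± 0.55, FDR 0.0069).

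Of the class-switched genes Ighg1 passed by limma (321, 1397 and 2390 with ADU-S100, 1184, 6152 and 13648 with anti-LTbR, 2.05 ± 0.56 SE, limma FDR 0.0385, and 0.0793 without anti-LTbR tumor 6), as did Ighg3 (2.49 ± 0.62, FDR 0.0287, and 0.0615 without ADU-S100 tumor 2). Ighg2b (1.65 ± 0.49, FDR 0.0535), Ighg2c (1.74 ± 0.57, FDR 0.0729) and Igha (1.17 ± 0.53, FDR 0.185) did not. By edgeR Ighg2b (FDR 0.0285 to 0.0308) and Ighg2c (0.0269 to 0.0286) passed too, and by DESeq2 all 3 did (0.00324, 0.00247 and 0.0365). Igha, the constant gene of the mucosal antibody class IgA, stood at 1830, 5112 and 10012 with ADU-S100 and 2278, 11787 and 65646 with anti-LTbR. Ighd, the IgD gene of naive B cells, stood at 9.87 to 37.0 and 13.4 to 46.3 (0.42 with a 95% interval of -0.14 to 0.98, FDR 0.352).

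**Figure D2:**
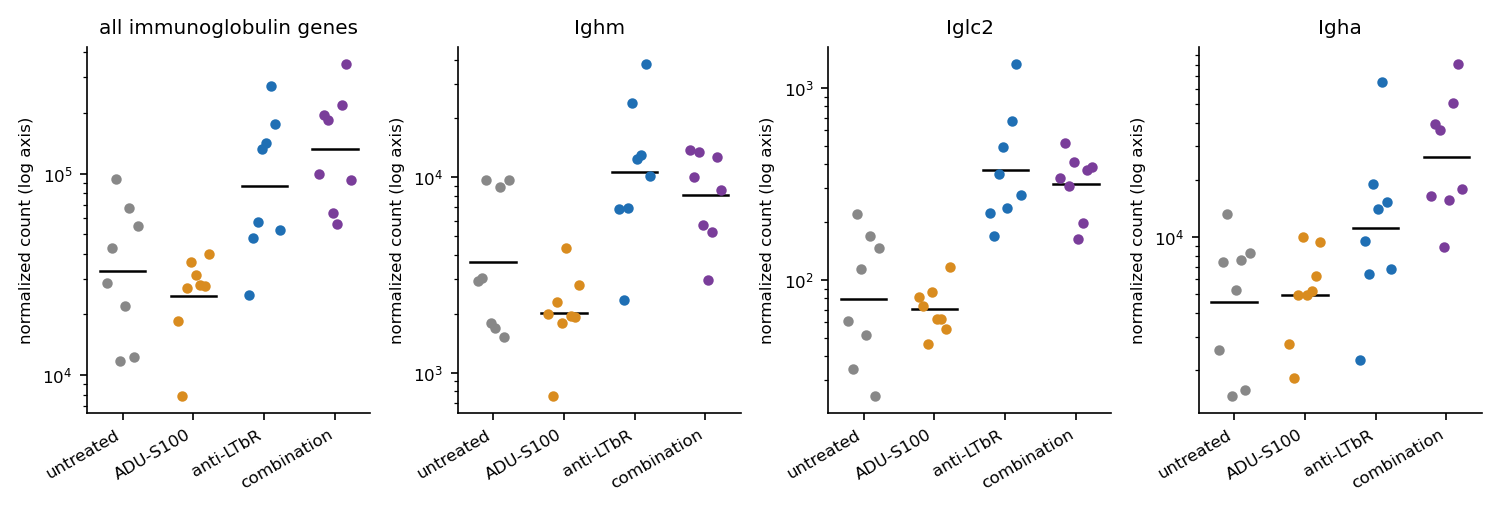
Normalized counts (log axes) of all 214 immunoglobulin genes summed, and of Ighm, Iglc2 and Igha, in each of the 8 tumors of the 4 groups. Points are tumors and lines geometric means; for Iglc2 the anti-LTbR tumors (169 to 1336) all lie above the ADU-S100 tumors (46.4 to 117), and for Igha the ranges overlap.

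The genes of antibody secretion followed. On the plasma cell and immunoglobulin list 11 of 18 members tested were higher and none lower (median log2 difference 1.67), and all 18 differences were positive. That count fell by more than 1.5 times in 9 of the 16 fits, and was lowest, at 5, without ADU-S100 tumor 2. Jchain, the joining chain of polymeric antibodies, had 607, 1630 and 2839 normalized counts with ADU-S100 and 1333, 4642 and 17952 with anti-LTbR (1.62 ± 0.44 SE, limma FDR 0.039), with 7 of 8 anti-LTbR tumors above all ADU-S100 tumors. Mzb1, a chaperone of antibody assembly, had 11.0, 42.7 and 66.3 against 48.5, 191 and 520 (2.19 ± 0.45, FDR 0.0123). The transcription factors Irf4 (89.8 ± 26.4 SD against 223 ± 97.9, 1.23, FDR 0.0141) and Pou2af1 (59.6 ± 31.3 against 221 ± 158, 1.70, FDR 0.0315), the secretory factor Bhlha15 (14.9 ± 4.92 against 40.6 ± 22.4, 1.27, FDR 0.024) and the protein export gene Derl3 (33.3 ± 9.18 against 82.7 ± 45.3, 1.13, FDR 0.0327) were higher too. Without ADU-S100 tumor 2 the FDR rose to 0.0816 for Jchain, 0.0659 for Pou2af1, 0.0681 for Derl3 and 0.055 for Bhlha15.

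Most B cell identity genes did not pass by limma. Of 15 tested, 3 passed, all higher (median 0.64), Ighm and Cd22 among them. Cd22, an inhibitory receptor of B cells, was 71.0, 96.6 and 146 with ADU-S100 and 138, 175 and 215 with anti-LTbR (0.74 ± 0.13 SE, limma FDR 0.0069). Its ranges overlapped. Ms4a1, which encodes CD20, had 3.95, 13.6 and 30.2 against 17.8, 26.8 and 47.1 and did not pass (1.07, 95% interval 0.31 to 1.83, FDR 0.084), nor did the B cell receptor component Cd79a by limma (1.23, FDR 0.0715), although Cd79a passed by edgeR (FDR 0.0432 to 0.0446) and DESeq2 (0.00572).

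On the germinal center and follicular helper list 7 of 14 genes had enough reads to be tested. Il21 and Cd40lg, which encode signals of helper T cells to B cells, were not among them. Pdcd1 (PD-1; 160 ± 30.7 SD against 232 ± 42.2, 0.53, limma FDR 0.031) and the costimulatory receptor Icos (95.6 ± 20.9 against 140 ± 29.7, 0.56, FDR 0.039) passed, and the median of the list was 0.09. The FDR of Pdcd1 rose to 0.0651 without ADU-S100 tumor 2 and that of Icos to 0.0757 without ADU-S100 tumor 4, and without anti-LTbR tumor 3 none of the 7 passed.

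T cell genes that passed were higher with anti-LTbR, by less than 2-fold. All 17 tested had positive differences, 8 passed and the median was 0.46, with 4 left without ADU-S100 tumor 2. Cd4, the coreceptor of helper T cells, had 68.7, 88.4 and 114 normalized counts with ADU-S100 and 106, 126 and 212 with anti-LTbR (0.61 ± 0.13 SE, limma FDR 0.0158), and 7 of 8 anti-LTbR tumors exceeded all ADU-S100 tumors. Lck (0.44, FDR 0.0136) and Cd2 (0.47, FDR 0.0224) also passed, but not in the joint fit of the 4 groups (0.0577 and 0.0727). Cd3e, a core subunit of the receptor complex, was 79.4, 130 and 163 against 129, 174 and 238 and did not pass (0.47, 95% interval 0.15 to 0.79, FDR 0.0717). Cd8a, the coreceptor of cytotoxic T cells, was 256, 380 and 520 against 340, 530 and 715 and did not pass (0.45, 0.10 to 0.81, FDR 0.114).

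Among TH1 and cytotoxic genes 5 of 15 passed, all higher (median 0.50), and 2 remained without ADU-S100 tumor 1. Ifng, the cytokine of TH1, cytotoxic T and natural killer cells, had 28.3, 49.3 and 55.7 normalized counts with ADU-S100 and 55.4, 82.6 and 102 with anti-LTbR. Of 8 anti-LTbR tumors 7 lay above all ADU-S100 tumors (0.89 ± 0.17 SE, limma FDR 0.00863). Il2rb, a receptor chain for IL-2 and IL-15, rose by 0.45 (FDR 0.0186), the TH1 factor Tbx21 by 0.71 (FDR 0.0368) and Il12rb2 by 0.77 (FDR 0.0373). Tbx21 and Il12rb2 lost significance in 8 and 11 of the 16 fits, with FDRs up to 0.0774 without ADU-S100 tumor 2 and 0.0741 without ADU-S100 tumor 4.

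Of 9 natural killer cell genes 4 were higher (median 0.44). They were the receptors Klrc1 (80.01 to 148 with ADU-S100 and 150 to 184 with anti-LTbR, 0.53, limma FDR 0.0125), Klrk1 (0.59, FDR 0.00999), Klrd1 (0.44, FDR 0.0158) and Klrb1c (0.63, FDR 0.0424). Klrc1 did not overlap between the agents, and several of these receptors are also carried by activated CD8+ T cells. Klrb1c, in contrast, lost significance in 11 of the 16 fits, with an FDR up to 0.0872 without anti-LTbR tumor 6.

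Some genes of the regulatory T cell and checkpoint list were higher as well. Of 13 tested 5 passed and 8 did not, and 12 differences were positive (median 0.44). Over all genes tested 3.38% passed as higher, and 2 of the 13 passed without ADU-S100 tumor 3. Pdcd1lg2, which encodes PD-L2, had 67.2, 130 and 166 normalized counts with ADU-S100 and 181, 222 and 408 with anti-LTbR. The ranges did not overlap (1.01 ± 0.20 SE, limma FDR 0.0114). Lag3 (231 ± 56.9 SD against 393 ± 87.7, 0.77, FDR 0.0164), Ctla4 (0.55, FDR 0.0441) and the IL-2 receptor chain Il2ra (0.53, FDR 0.045) overlapped, and the FDRs of Ctla4 and Il2ra rose to 0.0854 without anti-LTbR tumor 4 and 0.0903 without anti-LTbR tumor 6. Of 8 type 17 genes only 2 could be tested, and 0 passed by limma, edgeR or DESeq2 (1 had an unadjusted limma p under 0.05).

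Some antigen presentation genes were higher with anti-LTbR. On the MHC class II list 6 of 11 members were higher and none lower (median 0.40, and 3 without ADU-S100 tumor 2). Ctss, the protease that frees the class II groove, had 8344, 11994 and 12861 normalized counts with ADU-S100 and 13426, 15075 and 17109 with anti-LTbR, with no overlap (0.40 ± 0.078 SE, limma FDR 0.00999). H2-Aa and H2-Eb1, chains of the class II molecules, both rose by 0.45 (FDR 0.018 and 0.0201). On the class I list 3 of 11 passed (median 0.21), the peptide transporters and their docking factor Tap1 (0.25, FDR 0.029), Tap2 (0.28, FDR 0.0327) and Tapbp (0.27, FDR 0.028), and none passed without ADU-S100 tumor 2. H2-M2, a nonclassical class I gene chosen after its values were seen, shared the smallest adjusted p of the called genes with Dbp. It had 42.2, 66.2 and 118 with ADU-S100 and 99.8, 226 and 305 with anti-LTbR, with 7 of 8 tumors above (1.69 ± 0.22, FDR 0.00208).

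Interferon genes that differed were higher with anti-LTbR than with the STING agonist. Of 25 interferon-stimulated antiviral genes 3 passed, all higher with anti-LTbR, and 22 did not (median 0.22). Over all genes tested 3.38% passed as higher. Without ADU-S100 tumor 1 only 1 of the 25 passed. The 3 were Zbp1 (2665 to 4048 against 3900 to 5734 normalized counts, 0.43, limma FDR 0.0134), Ifit2 (0.38, FDR 0.0319) and Oasl2 (0.27, FDR 0.0335). Isg15 had 764, 1092 and 1396 with ADU-S100 and 984, 1186 and 1442 with anti-LTbR and did not pass (0.15, 95% interval -0.09 to 0.40, FDR 0.463). Of 17 interferon gamma response genes 6 were higher (median 0.33), and 2 without ADU-S100 tumor 1. Among them were the TH1-attracting chemokines Cxcl11 (45.2, 56.7 and 109 against 70.7, 179 and 302, 1.32 ± 0.27 SE, FDR 0.0125) and Cxcl10 (0.50, FDR 0.0419), and the guanylate-binding proteins Gbp5 (0.52, FDR 0.0147) and Gbp3 (0.33, FDR 0.0461).

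By limma 2 of 12 members tested on the STING pathway list were higher with anti-LTbR and none lower (median 0.17). Over all genes tested 3.38% passed as higher. By DESeq2 the list members Cgas (higher, FDR 0.0318) and Lrrc8a (lower, FDR 0.0417) passed as well. Sting1 itself had 910, 1002 and 1122 normalized counts with ADU-S100 and 1016, 1171 and 1341 with anti-LTbR (0.24 ± 0.058 SE, limma FDR 0.0252), and Samhd1, a nucleotide hydrolase, rose by 0.39 (FDR 0.0125). Without ADU-S100 tumor 2 only 1 of the 12 passed. Ifnb1, the type I interferon induced by STING, had too few reads for the fit, at 0, 3.67 and 63.4 with ADU-S100 and 1.92, 3.58 and 38.6 with anti-LTbR. A two-sided exact permutation test over the 16 tumors gave p = 0.724, where the smallest p possible is 0.000155.

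None of 16 LTBR and NF-kB pathway genes passed by limma, edgeR or DESeq2 (median 0.02, 3 with an unadjusted limma p under 0.05), and 9 differences were positive and 7 negative. Ltbr had 1132, 1299 and 1352 normalized counts with ADU-S100 and 1155, 1218 and 1357 with anti-LTbR (-0.05, 95% interval -0.14 to 0.04, limma FDR 0.499). Birc3, an NF-kB target, was 0.22 higher with an interval of 0.02 to 0.43 (FDR 0.175).

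On the list of lymphoid tissue chemokines and cytokines 4 of 13 tested were higher (median 0.47), the chemokines Ccl21a, Ccl21b and Cxcl13 and the cytokine Tnfsf13, with 1 left without ADU-S100 tumor 2. Ccl21a, the CCR7 ligand that draws T cells and dendritic cells, had 321, 358 and 631 normalized counts with ADU-S100 and 401, 710 and 1632 with anti-LTbR (0.92 ± 0.24 SE, limma FDR 0.0342, and 0.0653 without ADU-S100 tumor 4). Its copy Ccl21b had 18.0, 44.7 and 58.3 against 53.0, 80.6 and 153 (1.06 ± 0.25, FDR 0.0236). In the joint fit of the 4 groups neither passed (FDR 0.0532 for Ccl21a and 0.0619 for Ccl21b). Gm10591 has the same value as Ccl21b in every tumor, so these near-identical genes count as a single measurement. Cxcl13, the B cell attractant of follicles, had 2.19, 10.4 and 24.4 against 13.4, 28.8 and 49.7 (1.44 ± 0.40, FDR 0.0417, and 0.0851 without anti-LTbR tumor 6). In untreated tumors Cxcl13 averaged 31.3 ± 18.0 (SD, n = 8), close to the anti-LTbR mean of 31.5 ± 12.6. Ccl19, the other CCR7 ligand, did not pass (11.5 ± 4.92 against 16.8 ± 7.02, FDR 0.253), and the B cell survival factor Tnfsf13 did (0.47, FDR 0.0226).

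On the high endothelial venule and adhesion list 2 of 12 genes tested were higher and 1 lower (median 0.20). Over all genes tested 3.38% passed as higher and 3.04% as lower. The higher count fell to 1 in 11 of the 16 fits that left out 1 tumor. Vcam1, the adhesion molecule that binds lymphocyte integrin VLA-4, had 849, 1312 and 1543 normalized counts with ADU-S100 and 1729, 2130 and 3457 with anti-LTbR, with no overlap (0.83 ± 0.14 SE, limma FDR 0.006). Icam1 rose by 0.36 (FDR 0.04) and lost significance in 11 of the 16 fits, with an FDR up to 0.0815 without anti-LTbR tumor 6. Podxl, a sialomucin of vessels that many carcinoma cells also make, was lower with anti-LTbR, at 1556, 1788 and 2204 against 1859, 2755 and 3007 (-0.47 ± 0.11, FDR 0.0189). Glycam1, a mucin characteristic of high endothelial venules, was near the limit of detection, at 0 to 7.72 with ADU-S100 and 0 to 17.3 with anti-LTbR (two-sided exact permutation p = 0.236), and a difference was not detectable at this depth.

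Several endothelial genes were higher with anti-LTbR. Of 8 lymphatic markers 4 passed and all 8 differences were positive (median 0.71), with 2 left without ADU-S100 tumor 2. Prox1, the transcription factor that sets lymphatic identity, had 33.1, 47.7 and 57.2 normalized counts with ADU-S100 and 64.3, 84.1 and 113 with anti-LTbR, with no overlap (0.85 ± 0.14 SE, limma FDR 0.006). Flt4, the receptor for VEGF-C, had 93.3, 129 and 193 against 162, 268 and 461 (0.92 ± 0.20, FDR 0.0164), and Mmrn1 (0.88, FDR 0.031) and Reln (0.75, FDR 0.0466) passed with it. Of 17 blood endothelial genes 7 were higher (median 0.31), among them Egfl7 (0.54, FDR 0.0237), Vwf (0.31, FDR 0.0233), Mmrn2 (0.45, FDR 0.0301) and Plvap (0.47, FDR 0.0387), and none of the 17 passed without anti-LTbR tumor 6. The summed level of the blood endothelial list was alike, with a lowest, median and highest tumor of 9706.5, 11908 and 13147 with ADU-S100 and 10600, 11871 and 13457 with anti-LTbR, while the lymphatic sum ran from 739 to 1131 and from 1066 to 1966. Pecam1, the pan-endothelial CD31 gene, had 372, 567 and 654 against 582, 670 and 795 and did not pass (0.30, 95% interval 0.10 to 0.51, FDR 0.0678).

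Some macrophage genes were higher with anti-LTbR while the list as a sum was not. Of 15 tested 7 passed, all higher (median 0.24, and 3 without ADU-S100 tumor 2). The summed level of the list overlapped, at 209190 to 311640 with ADU-S100 and 200370 to 319230 with anti-LTbR. Nos2, the inducible nitric oxide synthase, had 1073, 1542 and 2080 normalized counts with ADU-S100 and 2016, 2669 and 3224 with anti-LTbR, 7 of 8 tumors lying above (0.85 ± 0.14 SE, limma FDR 0.006). Slc7a2, a transporter of its substrate arginine, had 534, 1045 and 1372 against 1338, 2142 and 3246 (1.04 ± 0.18, FDR 0.00669). Lyz2, the lysozyme of myeloid cells, had 10507, 17733 and 21558 against 21939, 24445 and 31267 with no overlap (0.57 ± 0.12, FDR 0.0156), and Cd68 (0.34, FDR 0.0114) and Csf1r (0.30, FDR 0.0236) rose by less.

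Genes outside the lists were higher as well. Kynu, which encodes kynureninase, had 12.1, 16.7 and 25.8 normalized counts with ADU-S100 and 31.4, 39.1 and 51.7 with anti-LTbR, with no overlap (1.14 ± 0.16 SE, limma FDR 0.00306). C3 had 3787, 5966 and 8933 against 8984, 13390 and 22377, also without overlap (1.27 ± 0.18, FDR 0.00306), and complement factor B, Cfb, which acts with C3 in the alternative pathway, had 1185 to 1759 against 1869 to 2956 (0.60, FDR 0.006). The serine protease inhibitors Serpina3f (248 ± 73.4 SD against 601 ± 185, 1.28, FDR 0.00564) and Serpina3n (636 ± 225 against 1271 ± 464, 1.01, FDR 0.0281, and 0.0589 without anti-LTbR tumor 6) were higher. Reg3g, an antibacterial lectin of epithelia, had 5.99, 13.3 and 37.5 against 25.6, 93.0 and 215, with 7 of 8 tumors above (2.53 ± 0.41, FDR 0.00564). The lectin Mgl2 (209 ± 60.8 against 430 ± 126, 1.05, FDR 0.0106) and Retnla (185 ± 87.4 against 406 ± 121, 1.27, FDR 0.0307, and 0.0636 without ADU-S100 tumor 4), both known from alternatively activated macrophages, were higher with anti-LTbR than with ADU-S100. Untreated tumors averaged 391 ± 209 (SD) for Mgl2. For Retnla their lowest, median and highest values were 65.1, 213 and 2162, and 1 tumor held the last of these, while the other 7 held 374 or less. These genes, other than Kynu and C3, were chosen after their values were seen.

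Dendritic cell genes passed in 3 of 12 (median 0.32, and 1 without ADU-S100 tumor 2). Zbtb46, the factor that marks conventional dendritic cells, had 145, 171 and 223 normalized counts with ADU-S100 and 230, 265 and 351 with anti-LTbR, with no overlap (0.62 ± 0.11 SE, limma FDR 0.00725). Clec9a, a receptor of cross-presenting dendritic cells, had 13.7, 29.9 and 32.9 against 31.5, 41.8 and 66.4 (0.73, FDR 0.0403). Fscn1, at the far higher level of 3151 to 3519 with anti-LTbR, rose by 0.17 (FDR 0.0257), and which cells made it was not tested. Neutrophil genes did not separate the agents. None of 17 passed by limma, edgeR or DESeq2 and 0 had an unadjusted limma p under 0.05 (median -0.01). S100a8 had 866 to 2408 against 652 to 2632 (-0.05, 95% interval -0.61 to 0.51, FDR 0.939) and Il1b 372 to 768 against 315 to 594 (-0.23, -0.57 to 0.11, FDR 0.417).

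**Figure D3:**
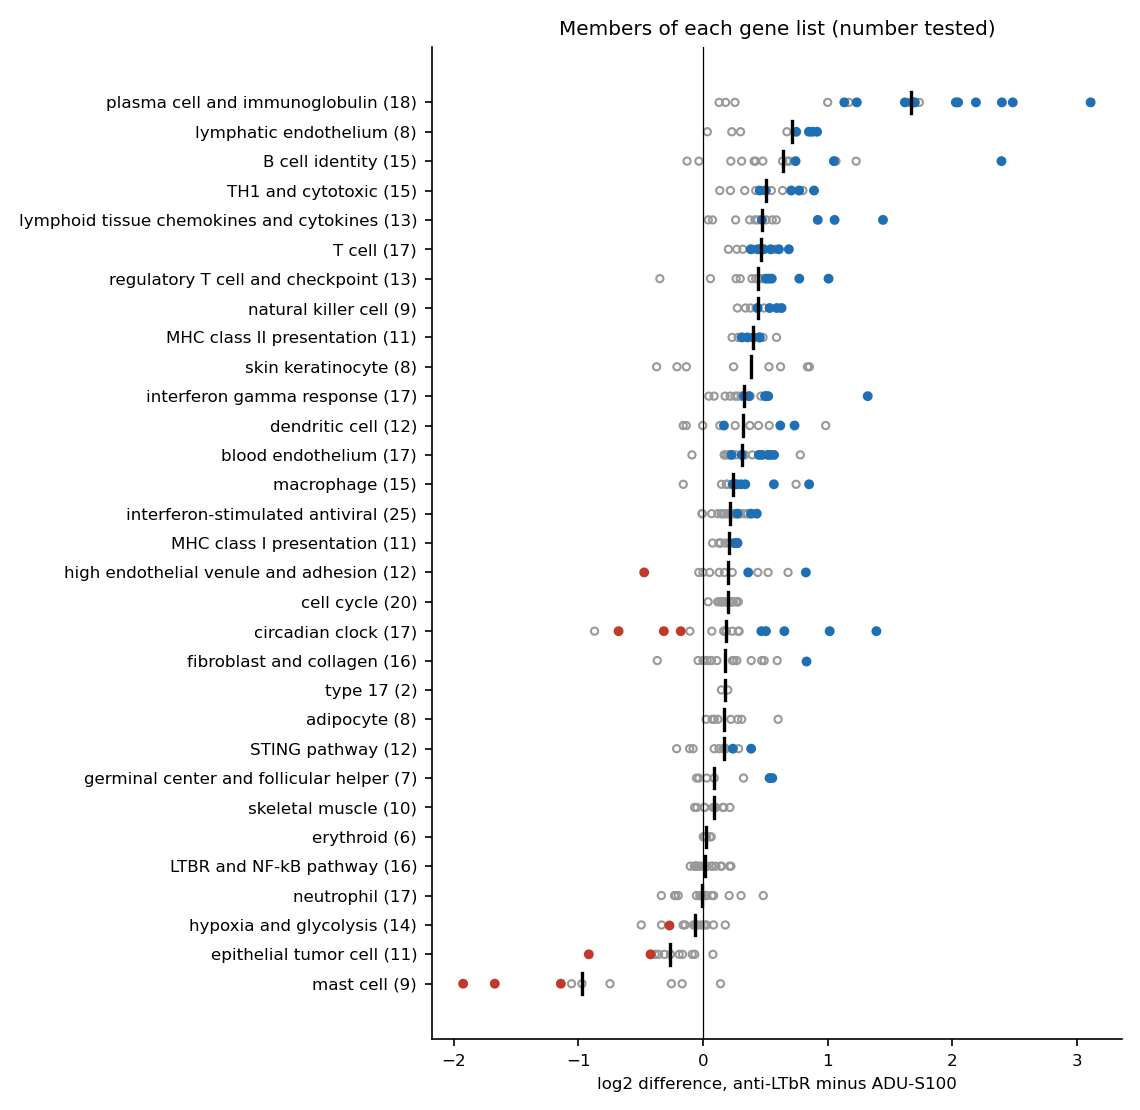
Log2 difference, anti-LTbR minus ADU-S100, of each tested member of 31 gene lists, with the number tested in parentheses. Blue points passed an FDR of 0.05 and were higher, red points passed and were lower, open points did not pass, and black bars are list medians, which run from 1.67 for plasma cell and immunoglobulin genes to -0.97 for mast cell genes.

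Genes lower with anti-LTbR were few at 2-fold. The largest difference was that of Gkn2, a secreted gastrokine of the stomach lining. It had 796 to 1564 normalized counts in ADU-S100 tumors 2, 3, 4, 5 and 7, and 4.95 to 14.3 in tumors 1, 6 and 8. All 8 anti-LTbR tumors held 1.84 to 10.9, so the ranges overlapped (-4.84 ± 1.14 SE, limma FDR 0.0236). Without ADU-S100 tumor 2 the FDR was 0.0521, and none of the 7 lower genes was called in that fit, although Hspa1b, whose difference lies near the 2-fold limit, passed the FDR in all 16 fits that left out 1 tumor. Among untreated tumors 1 held 2656 and the other 7 held under 10, and the combination tumors held 0 to 9.60.

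The same 5 ADU-S100 tumors were the highest of that group in Gkn1, Psca and Lgals2, which were chosen for description beside Gkn2. Gkn1 had 415 to 877 in those 5 and 0.99 to 6.58 in the other 3, against 0 to 5.77 with anti-LTbR (two-sided exact permutation p = 0.00559, too low in most tumors for the limma filter). Psca, a surface protein of stomach and urinary tract epithelium, had 29.8, 317 and 574 with ADU-S100 and 22.9, 46.2 and 92.1 with anti-LTbR (-1.97 ± 0.55 SE, limma FDR 0.0418). Lgals2, which encodes galectin-2, had 9.90, 95.1 and 146 against 11.5, 16.5 and 26.7 (-1.69 ± 0.48, FDR 0.0441). Psca and Lgals2 each lost significance in 12 of the 16 fits, with FDRs up to 0.086 and 0.092 without ADU-S100 tumor 2. Both were highest among untreated tumors in the same tumor as Gkn2 (937 and 279).

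Some mast cell proteases were lower with anti-LTbR, 3 of 9 mast cell genes tested, with none higher and a median of -0.97. Mcpt2, a mucosal mast cell chymase, had 38.9, 110 and 468 normalized counts with ADU-S100 and 12.4, 33.0 and 110 with anti-LTbR (-1.93 ± 0.47 SE, limma FDR 0.026). Its neighbor Mcpt1 had 50.9, 133 and 383 against 16.2, 48.8 and 169 (-1.67 ± 0.47, FDR 0.0437), and the tryptase Tpsb2 had 44.9, 103 and 336 against 18.1, 52.2 and 69.7 (-1.14 ± 0.33, FDR 0.047). Ranges overlapped in each. Cma1, the connective tissue chymase, did not pass by limma (-1.06, 95% interval -1.89 to -0.22, FDR 0.113). Without ADU-S100 tumor 2 none of the 9 passed. The untreated tumors were the highest of the groups, with Mcpt2 at 341 ± 145 (SD), so that the difference from untreated was -3.27 with anti-LTbR (limma FDR 8.88e-05) and -1.35 with ADU-S100 (FDR 0.276).

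A few epithelial genes were also lower. On the epithelial tumor cell list 2 of 11 passed, where 3.04% of all genes tested passed as lower. Of the 11 differences 10 were negative (median -0.26). The list was chosen with earlier results of these data known, so these counts are a description only. Chmp4c, a membrane-scission component, had 281, 420 and 459 normalized counts with ADU-S100 and 133, 234 and 316 with anti-LTbR (-0.92 ± 0.16 SE, limma FDR 0.00611). Lad1, an anchoring-filament protein, had 3215, 4034 and 4335 against 2704, 2896 and 3460 (-0.42, FDR 0.00311). Krt18 (-0.31, FDR 0.0886), Msln (-0.38, FDR 0.0938) and Krt19 (-0.19, FDR 0.324) did not pass. Among the 42 genes with all anti-LTbR tumors below all ADU-S100 tumors was Slit2, a guidance ligand, at 1276, 1532 and 1633 against 744, 944 and 1088 (-0.71 ± 0.077, FDR 0.000902). The junction protein Cxadr (616 to 1003 against 356 to 612, -0.68, FDR 0.00564), the ductal transcription factor Sox9 (4160 to 4796 against 2842 to 4118, -0.39, FDR 0.00725), the collagen receptor Ddr1 (-0.24, FDR 0.00208) and the integrin Itgb4 (-0.29, FDR 0.0199) were also among the 42. Those 5 were chosen after their values were seen. Vegfa was the 1 of 14 hypoxia and glycolysis genes that passed by limma, where 6.42% of all genes tested did (-0.27, FDR 0.0125). By DESeq2 Slc2a1 of that list passed as lower too (FDR 0.0181). Of 20 cell cycle genes none passed by limma, edgeR or DESeq2 (median 0.20, all 20 differences positive, 4 with an unadjusted limma p under 0.05).

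The paired heat shock genes Hspa1b and Hspa1a were lower with anti-LTbR. Hspa1b had 952, 1572 and 2018 normalized counts with ADU-S100 and 502, 717 and 1082 with anti-LTbR (-1.02 ± 0.18 SE, limma FDR 0.00669). Of 8 ADU-S100 tumors 6 lay above all anti-LTbR tumors. Its near-identical partner Hspa1a, with which reads can be confused, had 372, 690 and 963 against 274, 367 and 470 (-0.90 ± 0.17, FDR 0.00999). Untreated tumors stood between, at 1101 ± 201 (SD) for Hspa1b. Both are textbook targets of heat shock factor, so the RefSeq promoter of Hspa1b (GRCm38.p6, chr17:34959239-34959488, minus strand, the 250 bases before the start site) is shown with a GAANNTTC match in capitals, which lies 104 bases before the start in Hspa1a as well.
Hspa1b: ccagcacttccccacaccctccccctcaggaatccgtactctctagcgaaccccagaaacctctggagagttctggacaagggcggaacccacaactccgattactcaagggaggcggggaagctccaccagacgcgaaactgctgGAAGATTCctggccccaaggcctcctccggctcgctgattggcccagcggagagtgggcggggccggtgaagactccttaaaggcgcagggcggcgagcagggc
Of 32851 promoters of this length, 6.69% hold such a match on either strand, so it is a description of the sequence only.

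Circadian clock genes separated the agents in both directions. The clock is a feedback loop in which ARNTL (BMAL1) and its partners CLOCK or NPAS2 bind E-boxes and drive the Per, Cry, Nr1d and Dbp genes, whose products feed back on the loop or, as DBP, TEF and HLF do, bind D-boxes in output genes. Of 17 clock genes tested, 5 were higher and 3 lower with anti-LTbR (median 0.19), and 7 of these 8 passed in each of the 16 fits with 1 tumor left out.

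The activators Arntl and Clock were lower. Arntl had 645, 768 and 1020 normalized counts with ADU-S100 and 402, 490 and 554 with anti-LTbR, so all 8 anti-LTbR tumors lay below all ADU-S100 tumors (-0.68 ± 0.082 SE, limma FDR 0.00141). Clock fell by 0.18 on the log2 scale (FDR 0.0372, and 0.0792 without ADU-S100 tumor 2). Npas2 had 26.5, 34.2 and 63.6 against 8.65, 20.2 and 41.4 and just missed the threshold (-0.87, 95% interval -1.41 to -0.33, FDR 0.0516). Nfil3, which represses D-box genes, was also lower (-0.31, FDR 0.0171).

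The output factors Dbp, Hlf and Tef were higher, and so were Per2 and Per3. Dbp had 177, 338 and 366 with ADU-S100 and 450, 629 and 770 with anti-LTbR, without overlap (1.02 ± 0.13 SE, limma FDR 0.00208). Hlf had 8.99, 15.9 and 36.2 against 35.6, 46.1 and 61.7 (1.39 ± 0.24, FDR 0.006), with 7 of 8 anti-LTbR tumors above all ADU-S100 tumors. Per2 had 160, 223 and 289 against 304, 341 and 417, without overlap (0.65 ± 0.11, FDR 0.00621). Tef, with 743, 1123 and 1393 against 1345, 1598 and 1700 (0.47, FDR 0.0167), and Per3, with 276, 390 and 507 against 504, 551 and 613 (0.50, FDR 0.0188), overlapped narrowly. Per1 (0.29, FDR 0.378), Cry1 (0.07, FDR 0.841), Cry2 (0.28, FDR 0.125), Nr1d1 (0.17, FDR 0.0952) and Ciart (0.23, FDR 0.328) did not pass.

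Because ARNTL and the DBP family act through short promoter motifs, the RefSeq promoters of the list (GRCm38.p6, 250 bases before each start site) were read for the E-box CACGTG and the D-box TTATGTAA on both strands. Of the 17 genes 15 had an entry, with 20 promoters in all. Of these 20, 6 (in 5 genes) hold an E-box and 1 a D-box, where 6.02% and 0.819% of 32851 promoters do. Printed are the gene with D-boxes, Per3, at 205 and 158 bases before the start, a gene that rose with an E-box, Tef, at 127 bases, and a gene with 3 E-boxes that did not pass, Ciart, at 116, 58 and 44 bases. Matches are in capitals. They lie at chr4:151044666-151044915 (minus strand), chr15:81802423-81802672 (plus strand) and chr3:95882229-95882478 (minus strand).
Per3: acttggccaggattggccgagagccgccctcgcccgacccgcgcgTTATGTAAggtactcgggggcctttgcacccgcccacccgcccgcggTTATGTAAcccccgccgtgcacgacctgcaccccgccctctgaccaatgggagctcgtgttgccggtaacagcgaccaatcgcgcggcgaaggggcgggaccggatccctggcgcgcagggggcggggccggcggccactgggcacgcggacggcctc
Tef: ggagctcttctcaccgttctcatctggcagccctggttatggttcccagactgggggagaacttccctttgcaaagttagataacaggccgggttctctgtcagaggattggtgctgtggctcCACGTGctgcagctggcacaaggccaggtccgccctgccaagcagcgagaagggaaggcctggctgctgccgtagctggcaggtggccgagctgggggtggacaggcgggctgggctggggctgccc
Ciart: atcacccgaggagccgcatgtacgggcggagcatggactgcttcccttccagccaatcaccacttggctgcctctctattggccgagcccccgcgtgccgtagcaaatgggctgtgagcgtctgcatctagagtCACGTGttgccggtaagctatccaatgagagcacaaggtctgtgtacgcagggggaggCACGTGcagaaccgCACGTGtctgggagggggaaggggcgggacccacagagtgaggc
Per2 and Bhlhe40 had no entry. No match in these windows for Dbp, Hlf and Arntl says only that these letters are not in the 250 bases.

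Both comparisons with untreated tumors, which share those 8 tumors, place the clock difference. Against untreated, Arntl was -0.84 with anti-LTbR (limma FDR 6.15e-06) and -0.16 with ADU-S100 (FDR 0.362), Dbp was 1.42 (FDR 8.88e-05) and 0.40 (FDR 0.316), and Per2 was 0.82 (FDR 0.000824) and 0.16 (FDR 0.578). Combination tumors stood further in the direction of anti-LTbR, with Arntl at 337 ± 47.9 (SD), Dbp at 864 ± 176 and Hlf at 90.1 ± 23.8 normalized counts. All tumors were resected on day 14, and the hour of resection per group is not given in the sources used here, so its part in these clock values was not tested.

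**Figure D4:**
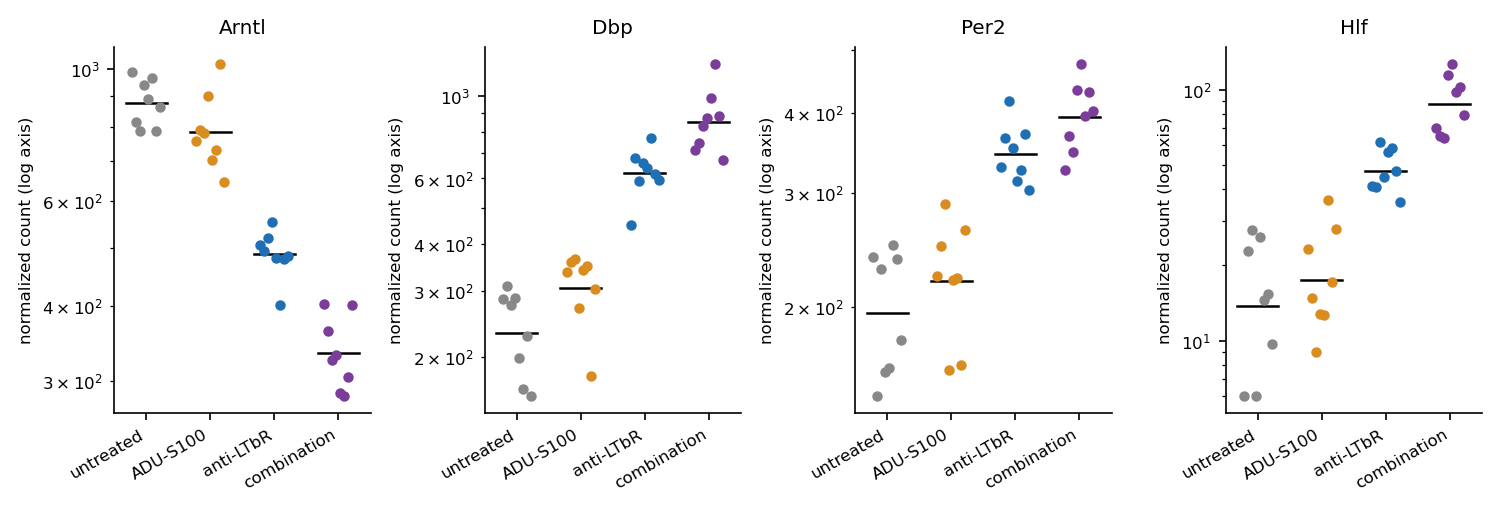
Normalized counts (log axes) of Arntl, Dbp, Per2 and Hlf in each of the 8 tumors of the 4 groups, with lines at the geometric means. Anti-LTbR tumors lie below all ADU-S100 tumors for Arntl (402 to 554 against 645 to 1020) and above them for Dbp (450 to 770 against 177 to 366) and Per2 (304 to 417 against 160 to 289), while for Hlf 1 tumor overlaps.

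Of 16 fibroblast and collagen genes 1 passed (6.42% of all genes tested did), Dpt, which encodes the matrix protein dermatopontin (1056 ± 395 SD against 1816 ± 509 normalized counts, 0.82, limma FDR 0.038), and it did not pass in 9 of the 16 fits with 1 tumor left out, among them that without ADU-S100 tumor 1. Col1a1 had 24246 to 62152 with ADU-S100 and 25532 to 54480 with anti-LTbR (0.11, 95% interval -0.34 to 0.56, FDR 0.81).

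Untreated tumors were the background of both agents. On group means of log2(normalized count + 1), of the 93 genes called higher with anti-LTbR the untreated mean lay nearer to the ADU-S100 mean in 80 and nearer to the anti-LTbR mean in 13, and of the 7 called lower it lay nearer to ADU-S100 in 6. Against untreated tumors 2555 of 16691 genes (15.3%) passed the FDR with anti-LTbR, 1203 higher (7.21%) and 1352 lower (8.10%). With ADU-S100 0 of 16613 (0%) did by limma, although 2408 had an unadjusted p under 0.05. Genes such as Mgl2 (untreated 391 ± 209 SD, ADU-S100 209 ± 60.8, anti-LTbR 430 ± 126), Cxcl13 and Ighv8-8 (74.3 ± 83.2, 13.8 ± 6.98 and 150 ± 155) showed an ADU-S100 mean below the untreated mean, but none of these 3 passed against untreated with ADU-S100 (FDR 0.279, 0.285 and 0.367). These 3 were picked after their values were seen. For the combination, the mean on the same log2 scale lay nearer to anti-LTbR in 91 of the 93 genes and in all 7 lower genes, and it lay beyond the anti-LTbR mean in 61 of the 93 and in 6 of the 7.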

How the data were processed

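Bulk RNA-seq of individual KPC tumors was analysed from the tables the authors deposited. The table of 32 libraries and 27525 genes holds a signal, namely reads per gene that the authors divided by 1 size factor per library in Partek, called normalized counts here. A larger table the authors deposited (52 libraries, 27894 genes, 26057 shared) holds a signal of the same kind. Each of its libraries steps by the value of a single read, and dividing by this step returned integer reads (100% of values whole, tolerance 0.1). The submitters' processing notes name cutadapt 1.9, HISAT 2, STAR, StringTie, edgeR, DESeq 2 and mm 39, and which aligner made which table is not given in the sources used here. Per-sample columns left unused number 0, and the authors' gene set results, which hold scores and p-values, were not used. Groups come from the sample labels. The sources give both 1 and 2 experiments for these tumors, and no label gives a batch, so a batch effect was not tested. Labels of 15 libraries of the other experiment contradict each other, and these were assigned to no group.

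Anti-LTbR and ADU-S100 tumors were compared with limma 3.58.1 (R 4.3.3, trend) on log2(normalized count + 1), after edgeR 4.0.16 filterByExpr with a count minimum of 10. P-values were adjusted over all genes tested by the Benjamini-Hochberg method. Genes were called where the FDR was under 0.05 and the groups differed 2-fold or more, a positive difference means higher in anti-LTbR tumors, and the pseudocount understates changes of low genes. Named genes failing the filter had two-sided exact permutation tests over 12870 splits. The genes named are the called genes without overlap with the smallest adjusted p, up to 4 members of each list with the smallest adjusted p, and a set of always-named genes; any others are said to have been chosen after their values were seen, or are called genes, pathway partners and clock genes described beside them. The members, gene lists and comparisons were chosen with earlier results of these data known. A few list members are counted with their lists but not reported here by name.

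Alternatives were pseudocounts of 0.5 and 0.1, no filter, at least 10 counts in every library, a joint fit of the 4 groups, the replicate number as a block, edgeR on recovered reads (RLE, TMM, library totals), DESeq2 1.42.0, genes in both tables, libraries above 14000000 reads, leaving out each tumor, and, chosen after seeing the data, skin and muscle marker sums as covariates. On simulated counts with 200 genes changed by 1.5 on the log2 scale, limma recovered 175 of 176 that passed its filter, with 3 false calls. That change is larger than the median difference of the genes that passed the FDR (0.45 among higher and -0.20 among lower genes). Recovery of such smaller differences was not tested. Replicate numbers name separate tumors. Whether each came from a mouse of its own is not given in the sources used here, so p-values measure the spread between these tumors.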

Additional observations from a re-analysis of the deposited data

Results flagged for a closer look

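In 17 of 288 sets of 8 values (144 named genes in 2 groups), the highest or lowest tumor stood apart from the other 7 by more than Dixon's 95% limit. Chance marks about 1 set in 20, so their number is no pattern. In ADU-S100 tumor 1 the low values were Ctss at 8344.5 normalized counts, Cd3e at 79.4 and Slc7a2 at 534. ADU-S100 tumor 2, whose removal changes most calls, was low in Cd79a (10.9, the others from 28.5 to 58.9), Clec9a (13.7) and Ighg2c (333, the others from 885 to 1611). ADU-S100 tumor 4 was low in Pecam1 (372), tumor 7 in Dbp (177, the others from 271 to 366), and tumor 8 in Lad1 (3215) and Chmp4c (281).

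Among anti-LTbR tumors, tumor 1 was low in H2-M2 (99.8, the others from 197 to 305) and high in Csf1r (4710). Tumor 2 was low in the mast cell genes Tpsb2 (18.1) and Cma1 (7.64). Tumor 6 was low in Arntl (402, the others from 480 to 554), tumor 7 in Gkn1 (0) and tumor 8 in Fscn1 (3151).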

How the results depend on the processing

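The 100 called genes (93 higher, 7 lower) became 60 (55 higher) with at least 10 counts in every library and 170 (150 higher, 20 lower) with DESeq2, of which 98 were among the 100. With no filter on low counts 25 were lower, and with the replicate block 3. At the FDR alone there were 1069 (563 higher, 506 lower), against 302 and 173 in the joint fit and 532 and 291 with edgeR scaled by library totals, so the even split of directions depends on the fit. Other settings gave 70 to 137 called genes. Leaving out 1 tumor gave 49 to 118 called genes, 49 to 110 higher and 0 to 13 lower. Skin and muscle covariates, chosen after seeing the data, gave 118. Of the named genes that passed, 85 of 134 kept their FDR in the joint fit and 96 of 134 with the block. Genes that did not pass changed sign in places: the log2 difference of Pvalb to -0.0356 (edgeR RLE), -0.029 (TMM), -0.035 (DESeq2) and -0.0264 (library totals), and the log2 difference of S100a8 to 0.000194 with library totals. With only libraries above 14000000 reads, Pvalb was -0.96, Mb -0.79, Atp2a1 -0.95, Myh4 -1.10, Dsg3 0.085 and S100a8 0.031.

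Tumors with the same replicate number did not deviate together (correlations averaging -0.0037 over 8 pairs, 3 over 0.1, none best with its own number), so the numbers do not pair the tumors and the block result, 70 called genes, is only a setting. Depth limits genes of a few reads, among them Ifnb1, Glycam1 and Il21. Day 14 is the only time point, and the agents differ in route and number of doses, so agent and schedule cannot be told apart.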

Other observations

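Some further called genes belong to no list. Ackr2, a scavenger receptor for inflammatory chemokines that lymphatic vessels make, had 20.6 to 58.4 normalized counts in ADU-S100 tumors and 41.5 to 105 in anti-LTbR tumors (log2 difference 1.09, limma FDR 0.0195). Ltc4s, the enzyme that makes leukotriene C4, had 11.8 to 25.8 and 33.9 to 76.5, without overlap (1.07, FDR 0.00725). Gpr55, a lipid-sensing receptor, had 23.7 to 69.3 and 51.1 to 125 (1.08, FDR 0.00818), and Piwil4 11.7 to 21.1 and 25.3 to 52.5, without overlap (1.26, FDR 0.00338). The metalloprotease Adamdec1, known from macrophages and stroma of the gut, had 12.7 to 56.0 and 41.5 to 112 (1.67, FDR 0.0102).

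Among the 62 genes with all anti-LTbR tumors above all ADU-S100 tumors were Gm2a (1811 to 2176 against 2346 to 3512, 0.50, limma FDR 0.00306), Dram1 (0.37, FDR 0.00141), Ctsa (0.20, FDR 0.00611) and Ctsc (0.27, FDR 0.0171). The 62 also held Btk (108 to 138 against 157 to 191, 0.43, FDR 0.0046), Lax1 (0.94, FDR 0.00574), Ms4a4b (0.64, FDR 0.00504) and Ctsw (0.42, FDR 0.00999). Among the 42 genes on the other side, Cct5 (-0.15, FDR 0.0102), a subunit of the TRiC chaperonin, Cdc37 (-0.14, FDR 0.0123), a kinase cochaperone, and the ribosome assembly factors Rrs1 (-0.19, FDR 0.00725) and Ebna1bp2 (-0.19, FDR 0.0101) were lower in all anti-LTbR tumors. Ctsc, Ctsw, Cct5, Rrs1 and Ebna1bp2 did not pass in the joint fit of the 4 groups (FDR 0.0759, 0.0681, 0.123, 0.0779 and 0.068). All of these were chosen after their values were seen, other than Ltc4s and Piwil4.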
